A study of Danio rerio with 7 samples.

Results

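The effect of CACF exposure on gene expression was examined in zebrafish larvae kept on a high-fat diet, by setting the 2 libraries of larvae given the high-fat diet and CACF against the 2 libraries of larvae given the high-fat diet without it. The members are these 4 of the 7 libraries of the series, chosen by their diet and treatment labels, and all genes that passed a filter on low values were compared. The series asks in its title about lipid accumulation and liver cancer in zebrafish that overexpress CD36, a scavenger receptor that takes up fatty acids. All 7 libraries, normal-diet controls included, came from whole larvae of this CD36 overexpression transgenic line at 15 days post fertilization. The promoter that drives the transgene, the number of larvae behind a library and the clutches they came from are not given in the labels. Larvae in the group with CACF had the high-fat diet (24%) from 5 days post fertilization and were then held in E3 buffer, the usual salt solution for zebrafish embryos, with CACF at 40 µg/ml from 4 pm to 9 am after the last meal. Larvae of the high-fat diet group had the same diet, and their labels name no CACF. Feeding from 9 am to 4 pm and the period from 4 pm to 9 am are recorded alike for all 7 libraries. Larvae of the normal-diet group were fed a 12% diet, and their values are given below for orientation. Their libraries are outside the contrast but enter the filter on low values and the shared estimate of the spread. CACF is not spelled out in the labels, and the hour at which each group was collected is not stated.

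The vertebrate clock is a transcriptional loop in which CLOCK and BMAL proteins switch on period, cryptochrome, DEC and Rev-erb genes, whose products then repress CLOCK and BMAL activity or transcription. ROR receptors activate and Rev-erb receptors repress the same response elements. In zebrafish most tissues hold a clock that light sets directly, and many genes of retina, gut and metabolism have levels that depend on the time of day. Whole larvae mix all tissues, so for every gene below fewer cells of a type and less RNA per cell cannot be told apart.

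The deposited normalized counts, which are reads per gene divided by a size factor for each library, came from 18898959 and 21237741 reads in CACF fish 2 and fish 4, against 12699552 and 15819634 in high-fat diet fish 2 and fish 4. The normal-diet libraries held 19289270 to 22543693 reads. CACF fish 2 and normal-diet fish 1 stood apart from the rest, with median correlations to the other libraries of 0.884 and 0.895, against 0.941 to 0.949 for the other 5. Because of this, the medians of the main lists are also given with each CACF library left out. Markers of 11 cell types were looked up in the libraries, and those found had counts apart from 2 of the 4 erythrocyte entries, which were at 0 throughout (of 7 hepatocyte markers 6 were in the tables). Of the cd36 transcript itself, CACF libraries held 169 and 154 normalized counts in fish 2 and fish 4, against 607 and 448 in the high-fat diet libraries and 3215, 172 and 223 in normal-diet fish 1, 2 and 4. Both CACF libraries were below both high-fat diet libraries and normal-diet fish 1 was the highest of the 7, and the difference did not pass the test (log2 fold change -1.67, SE 1.14, limma adjusted p = 0.537). Normal-diet fish 1 is outside the comparison but enters the shared estimate of the spread: without it the unadjusted limma p of cd36 was 0.00047 (adjusted p = 0.112), and from the 4 high-fat diet libraries alone it was 0.000915 (adjusted p = 0.0935). Whether transgene reads were counted to this gene is not stated.

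Of 20906 genes tested, 3 passed an adjusted p of 0.05 (0.0143%), and all 3 were lower with CACF: nr1d1, bhlhe41 and cabp5b. No gene was called higher. At an unadjusted p under 0.05 there were 3320 genes (15.9%), with 2036 higher (9.74%) and 1284 lower (6.14%). Fold changes were above 0 in 49.2% of genes and below 0 in 50.8%, and the median log2 fold change of all genes was -0.01. On TPM the split was 2064 higher and 438 lower, at an all-gene median of 0.16. Both CACF libraries lay above both high-fat diet libraries in 24.8% of genes and below both in 23.2%, so with 2 libraries a group a lack of overlap is common and is read below against these shares. Log2 fold changes are CACF over high-fat diet alone, on log2(normalized count + 5), a scale that understates changes of low genes, with the standard error (SE) from the limma fit. The labels do not say that libraries came from separate clutches or tanks, so p-values measure the spread between these libraries, which may be technical.

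**Figure D1:**
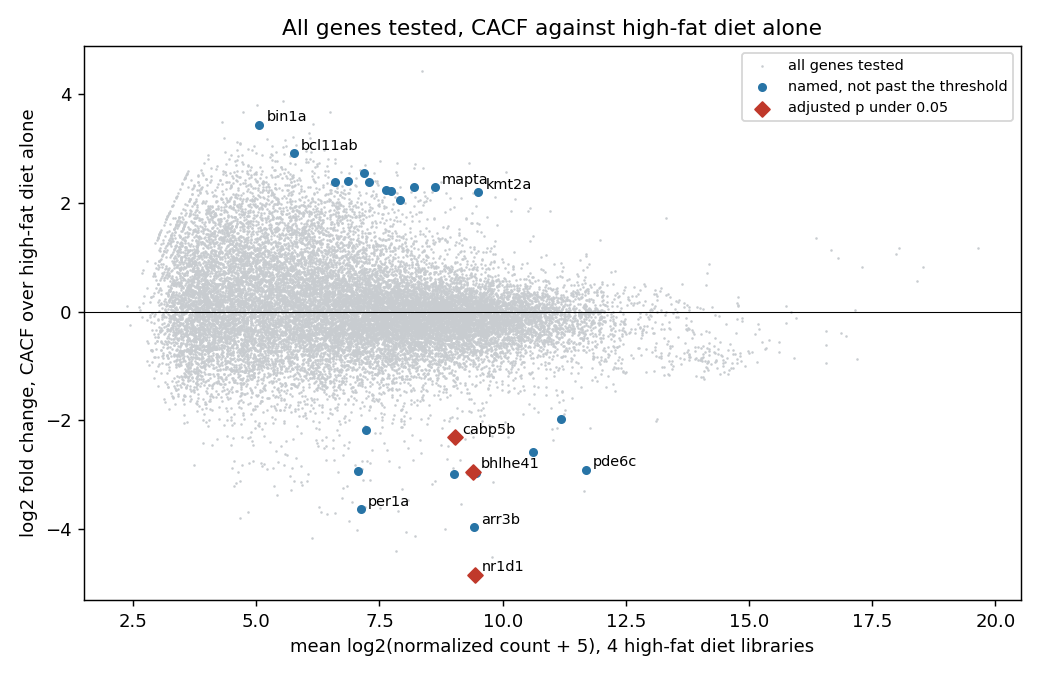
Log2 fold change of CACF over high-fat diet alone (vertical axis) against the mean log2(normalized count + 5) of the 4 high-fat diet libraries (horizontal axis), 1 point per gene tested. The 3 genes past an adjusted p of 0.05 (red diamonds) lie between -2.31 and -4.84, and the named genes that did not pass are blue.

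nr1d1 encodes Rev-erb alpha, a nuclear receptor that represses BMAL transcription. It lies on chromosome 3 (chr3:23488652-23496223, GRCz11 span of the gene). It had 78.1 and 195 normalized counts in CACF fish 2 and fish 4, against 4196 and 3249.9 in high-fat diet fish 2 and fish 4, and the normal-diet libraries held 5204, 3987 and 4344. Both CACF libraries were far below all 5 others, and the high-fat diet libraries were within or just below the range of the normal-diet ones. On the per-length scale the level was 1.93 and 4.51 TPM with CACF, against 85.5 and 69.4 TPM on the high-fat diet alone. The means were 136 ± 82.3 and 3723 ± 669 normalized counts (SD, n = 2 each), and nr1d1 fell with CACF by a log2 fold change of -4.84, SE 0.39 (limma adjusted p = 0.0167). bhlhe41 encodes DEC2, a basic helix-loop-helix repressor of CLOCK and BMAL, on chromosome 18 (chr18:16125852-16130165). It had 188 and 303 normalized counts with CACF, against 2203 and 1601 on the high-fat diet alone and 2599, 2822 and 2663 on the normal diet. The groups were again wholly apart, and bhlhe41 fell by a log2 fold change of -2.95, SE 0.29 (limma adjusted p = 0.0291).

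cabp5b encodes a calcium-binding protein of the calmodulin family, whose mammalian counterpart is found in bipolar cells of the retina, and lies on chromosome 3 (chr3:15296824-15317392). It had 224 and 237 normalized counts with CACF, against 1206 and 1125 on the high-fat diet alone and 1243, 1243 and 1354 on the normal diet. The 2 CACF libraries were nearly alike, and the 5 others were all about as high as each other. The means were 230.3 ± 9.42 and 1166 ± 57.1 normalized counts (SD, n = 2 each), and cabp5b fell by a log2 fold change of -2.31, SE 0.23 (limma adjusted p = 0.0291). Its level was 13.5 and 14.6 TPM with CACF and 60.6 and 60.6 TPM without. The calls of nr1d1, bhlhe41 and cabp5b were lost when either high-fat diet library was left out. Those of bhlhe41 and cabp5b were also lost without CACF fish 2. Each of these fits leaves a lone library in a group. Without CACF fish 2 the log2 fold changes of nr1d1, bhlhe41 and cabp5b were -4.21, -2.61 and -2.27. In edgeR all 3 calls were lost (adjusted p = 0.0747 for each). The calls were also lost without normal-diet fish 2 or fish 4, which lie outside the comparison (limma adjusted p of nr1d1 0.0662 and 0.0736). On TPM only nr1d1 passed (adjusted p = 0.00457), while DESeq2 on the recovered reads called 729 genes higher and 246 lower, these 3 among them.

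Clock genes showed an ordered pattern, with the repressor side low and the activator side high in both CACF libraries. Of 19 genes of the repressor side and core loop, 15 had both CACF libraries below both high-fat diet libraries and 2 had both above, against 23.2% and 24.8% of all genes. At an unadjusted p under 0.05, 13 were lower and 0 higher, nr1d1 and bhlhe41 being the members past the adjusted threshold. The list's median log2 fold change was -1.71, beside -0.01 over all genes, with -1.32 without CACF fish 2 and -1.93 without CACF fish 4. Of 12 tested genes of the activator list, which also holds 3 nfil3 genes that encode repressors, 11 had both CACF libraries above both high-fat diet libraries, and 9 were higher at the unadjusted threshold. The nfil3 genes make up 2 of those above and the 1 below without overlap. The median there was 1.87, with 1.56 without CACF fish 2 and 1.98 without fish 4. The medians of the 2 lists thus stood on opposite sides of 0 with either CACF library alone.

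Among the period genes, whose proteins hold back CLOCK and BMAL, per1a had 18.3 and 62.2 normalized counts with CACF, against 613 and 384 on the high-fat diet alone and 843, 738 and 703 on the normal diet. per1b had 439 and 917 with CACF and 4145 and 3560 without, and per2, the light-induced period gene of zebrafish, had 976 and 1381 with CACF and 4976 and 4268 without. In all 3 both CACF libraries were below all 5 others, fish 2 the lower of them, at log2 fold changes of -3.63, -2.59 and -1.98, none past the adjusted threshold. ciarta, a homologue of the mammalian clock repressor CIART, had 161 and 375 normalized counts with CACF, against 1925 and 1979 without (log2 fold change -2.96, SE 0.36, limma adjusted p = 0.0854). Among cryptochromes, cry5, which is of the photolyase-like branch, had 19.1 and 85.6 with CACF, against 249 and 254 without. The second Rev-erb gene nr1d2b had 934 and 2910.1 with CACF, against 7928 and 6701 on the high-fat diet alone. In each of these genes the 2 groups did not overlap.

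On the activator side, clocka and clockb encode CLOCK, the partner of BMAL. clocka had 168 and 114 normalized counts with CACF, against 5.1 and 20.7 on the high-fat diet alone and 40.4, 38 and 16.9 on the normal diet. clockb had 456 and 299 with CACF, against 101 and 77.5 on the high-fat diet alone. Both CACF libraries were above all 5 others for both genes, but neither passed the adjusted threshold (log2 fold change of clocka 3.16, SE 0.61, limma adjusted p = 0.117). The BMAL1 gene arntl1b had 234 and 252 normalized counts with CACF, against 51 and 48.6 without. The CLOCK paralogue npas2 had 133 and 103 with CACF, against 23 and 30 without. The ROR gene rorca had 370 and 419 with CACF, against 152 and 174 without. These 3 genes likewise had both CACF libraries above both libraries of the high-fat diet alone. Apart from these activators, nfil3-5, of the family of the E4BP4 repressor that competes for PAR bZIP sites, had 5055 and 2842 with CACF and 1053 and 1057 without.

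The PAR bZIP output factors, activators that carry the rhythm to other genes, were split among 6 tested members. dbpb had 109.7 and 287 normalized counts with CACF, against 1571 and 1327 on the high-fat diet alone, and tefa had 557 and 1409 with CACF, against 3448 and 2980.2 without. Both were low in both CACF libraries, with fish 2 the lower. hlfa stood on the other side with 659 and 412 with CACF, against 329 and 269.7 on the high-fat diet alone, while the normal-diet libraries held 973, 802 and 559. Paralogous pairs such as per1a and per1b or clocka and clockb share sequence, and no label or header says how reads common to such pairs were assigned.

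**Figure D2:**
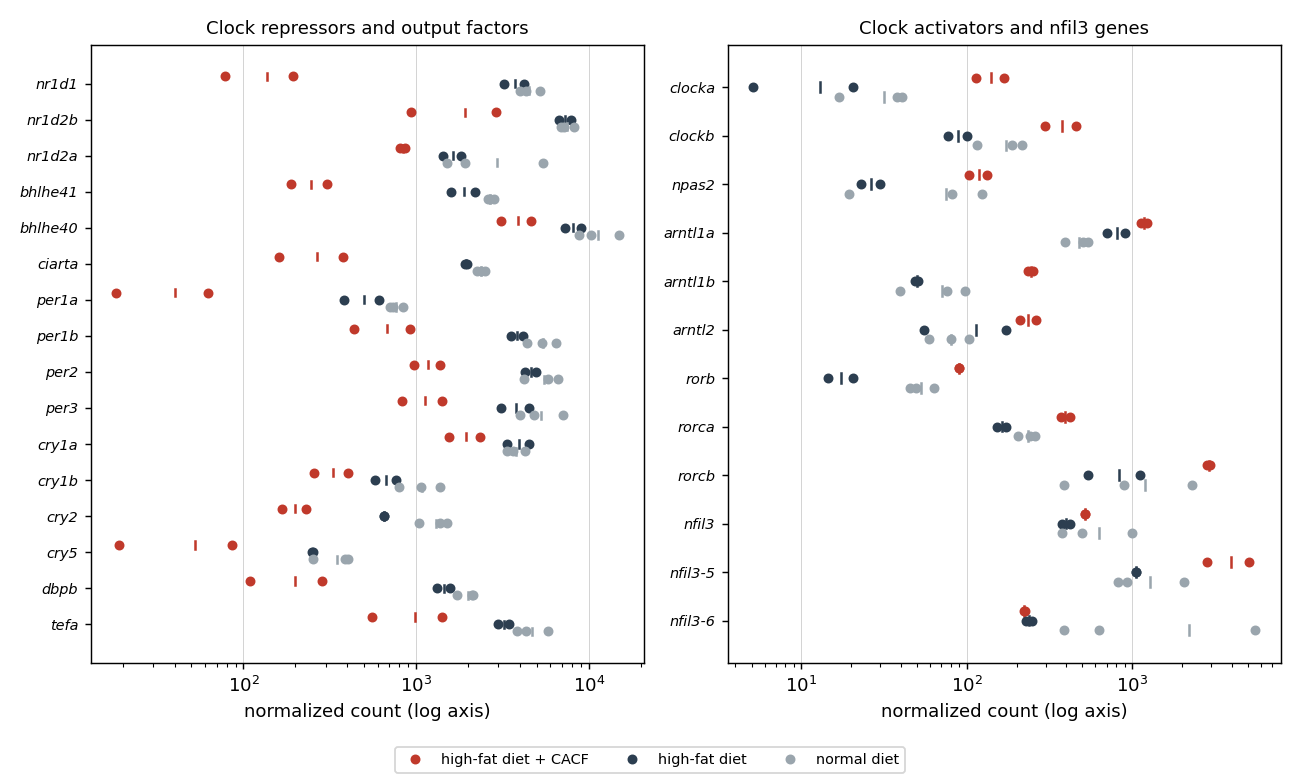
Normalized counts (log axis) of clock genes by library, with the high-fat diet plus CACF in red, high-fat diet alone in dark blue and normal diet in grey; points are libraries and short vertical lines group means. The red points of nr1d1, bhlhe41 and per1a lie left of all others, and those of clocka and clockb right of all others.

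The photoreceptor genes formed the second low group. Light activates opsins, which switch on transducin and a cGMP phosphodiesterase, and arrestins and opsin kinases end the response. Of 31 tested genes of cone and rod phototransduction, 26 had both CACF libraries below both high-fat diet libraries and 18 were lower at the unadjusted threshold, against 23.2% and 6.14% of all genes. The median log2 fold change was -1.14, with -0.82 without CACF fish 2, -1.43 without fish 4 and -0.75 on TPM. No member passed the adjusted threshold.

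pde6c, the catalytic subunit of the cone phosphodiesterase, had 870.4 and 1642 normalized counts with CACF, against 8332 and 9799 on the high-fat diet alone and 8966, 7792 and 11877 on the normal diet (log2 fold change -2.91, SE 0.35, limma adjusted p = 0.0854). The cone arrestin gene arr3b had 88.1 and 313 normalized counts with CACF, against 2349 and 3063 without, and its paralogue arr3a had 456 and 2271 with CACF, against 9075 and 11109.8 without. grk7a, a cone opsin kinase, had 205 and 419 with CACF and 2300.1 and 3010.2 without. In each of these both CACF libraries were below both libraries of the high-fat diet alone, and CACF fish 2 was below fish 4. gnat2, the cone transducin alpha subunit, had 2807 and 3194 with CACF and 7882 and 8743 without, at a log2 fold change of -1.47. The rod transducin gene gnat1 was nearer to 0, at -0.49.

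The opsins themselves did not form one group. Of 11 entries, 4 had both CACF libraries below and 1 had both above the high-fat diet libraries, against 23.2% and 24.8% of all genes. rho, the rod opsin, had 11349.6 and 14006 normalized counts with CACF, against 22863 and 22555 without, and opn1sw1, the ultraviolet cone opsin, had 5850.2 and 7567 with CACF, against 13850.4 and 15999.7 without. opn1lw1, one of the red cone opsins, ran the other way with 739.9 and 581 with CACF, against 239.7 and 274 on the high-fat diet alone and 181, 284 and 138 on the normal diet, at a log2 fold change of 1.34. Its neighbour opn1lw2 was at 0.02, and near-identical opsin copies can share reads, which makes the split between them uncertain.

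In the list of retinal guanylate cyclases and the visual cycle, which restores cGMP and the chromophore, 12 of 21 tested genes had both CACF libraries below the others of the high-fat diet. None had both above, beside 23.2% below and 24.8% above over all genes. The list's median log2 fold change was -1.01, with -0.50 without CACF fish 2, -1.56 without fish 4 and -0.67 on TPM. guca1c, a cyclase activator, had 11.6 and 18.3 normalized counts with CACF, against 135 and 101 without. rbp4l, a member of the retinol-binding protein family, had 103 and 301 with CACF and 1186 and 1183 without. The photoreceptor transcription factor crx, listed with melatonin synthesis, had 641 and 886 with CACF and 1266 and 2062 without. The groups were separate in all 3 genes. Of 31 lens crystallin genes, which mark another part of the eye, 2 were below and 2 above without overlap, and their median was -0.03 (-0.38 and 0.39 without high-fat diet fish 2 or fish 4).

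Most digestive genes were also lower in both CACF libraries than on the high-fat diet alone, but their values spread far more within groups. Among 23 tested exocrine pancreas enzymes, 17 had both CACF libraries below both high-fat diet libraries and 0 had both above. These shares were 23.2% and 24.8% over all genes. At the unadjusted threshold 12 were lower, against 6.14% of all genes. In edgeR 4 were lower, while 15 were with quantile normalization and 15 of 20 on TPM. The median log2 fold change was -2.83, with -1.63 without CACF fish 2 and -4.10 without fish 4. prss1, a trypsin, had 29.9 and 369 normalized counts in CACF fish 2 and fish 4, against 1132 and 2906 on the high-fat diet alone and 7356, 524 and 6147 on the normal diet. CACF fish 2 was the lowest of the 7 libraries, and CACF fish 4 was nearest to normal-diet fish 2. The chymotrypsin-like gene ctrl had 8.31 and 201 with CACF, against 323 and 1240 without (log2 fold change -3.61, SE 1.32, limma adjusted p = 0.238). Trypsin and elastase genes are near-identical families, and counts of single copies are uncertain.

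Of 39 tested enterocyte genes, which serve digestion and absorption at the gut lining, 28 had both CACF libraries below and none both above the high-fat diet libraries. These shares were 23.2% and 24.8% over all genes. At the unadjusted threshold 7 were lower, against 6.14% of all genes. Their median was -2.01, with a wide median SE of 1.29 per gene. It was -1.86 and -2.07 without CACF fish 2 or fish 4, and -1.26 on TPM. mep1a.1, a meprin protease of the brush border, had 9.98 and 78.3 normalized counts with CACF, against 455 and 238 on the high-fat diet alone and 937, 141 and 201 on the normal diet. chia.1, an acidic chitinase, had 34.9 and 56.3 with CACF, against 819.8 and 1335 on the high-fat diet alone and 4959.9, 44.7 and 452 on the normal diet. The CACF libraries were below those of the high-fat diet alone in both genes, and the normal-diet libraries spread widely. Summed over the list, normal-diet fish 2 held 7485 normalized counts, fewer than the 11991 and 12336 in CACF fish 2 and fish 4. fabp6, the ileal bile acid binding protein, overlapped between groups with 154 and 1541 with CACF and 4214 and 1057 without.

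Hepatocyte plasma protein genes had a median of -0.68 over 36 tested members, but -0.26 without CACF fish 2 and -0.17 without high-fat diet fish 4. Of the 36, 12 had both CACF libraries below and none both above, against 23.2% and 24.8% of all genes. At the unadjusted threshold 2 were lower, near the 6.14% of all genes. tat, a liver enzyme of tyrosine breakdown, had 89 and 606 normalized counts with CACF, against 877 and 1051 on the high-fat diet alone. fabp10a, the liver fatty acid binding protein, was at a log2 fold change of -1.27 without overlap. Summed over the marker genes of each cell type, CACF libraries held 92.3 and 957 normalized counts of exocrine pancreas markers, against 2476 and 6403 on the high-fat diet alone. Normal-diet fish 1, 2 and 4 held 15674, 1095 and 12727. Enterocyte markers summed to 1709 and 3013 with CACF, against 6879.9 and 4756 without and 28599, 2997 and 5328 on the normal diet. Photoreceptor markers summed to 19223 and 25829 with CACF, against 53034 and 59168 without and 45413, 54019 and 60622.5 on the normal diet. In normalized counts the sums of these 3 cell types were lower in both CACF libraries than on the high-fat diet alone. On TPM the enterocyte sums overlapped, at 74.6 and 247 with CACF, against 564 and 239 without. Hepatocyte markers, at 4118 and 5819 normalized counts with CACF, against 7663 and 10773 without, were also lower in both CACF libraries. On the normal diet they summed to 12631, 2218 and 10336.5, with normal-diet fish 2 the lowest of the 7 libraries. Keratinocyte markers were higher in both CACF libraries, at 63683 and 60089.9, against 54435 and 54581 without. The normal-diet libraries held 81212, 92393 and 99669.5. The list of epidermis genes did not follow this sum. Of its 31 tested genes, 11 were below and 4 above without overlap, against 23.2% and 24.8% of all genes. Their median log2 fold change was -0.24 (0.09 on TPM). Neuron markers summed to 40526 and 40257 with CACF, against 41450.4 and 37506 without, where the groups overlapped. The part of cell makeup in the list values was not tested.

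**Figure D3:**
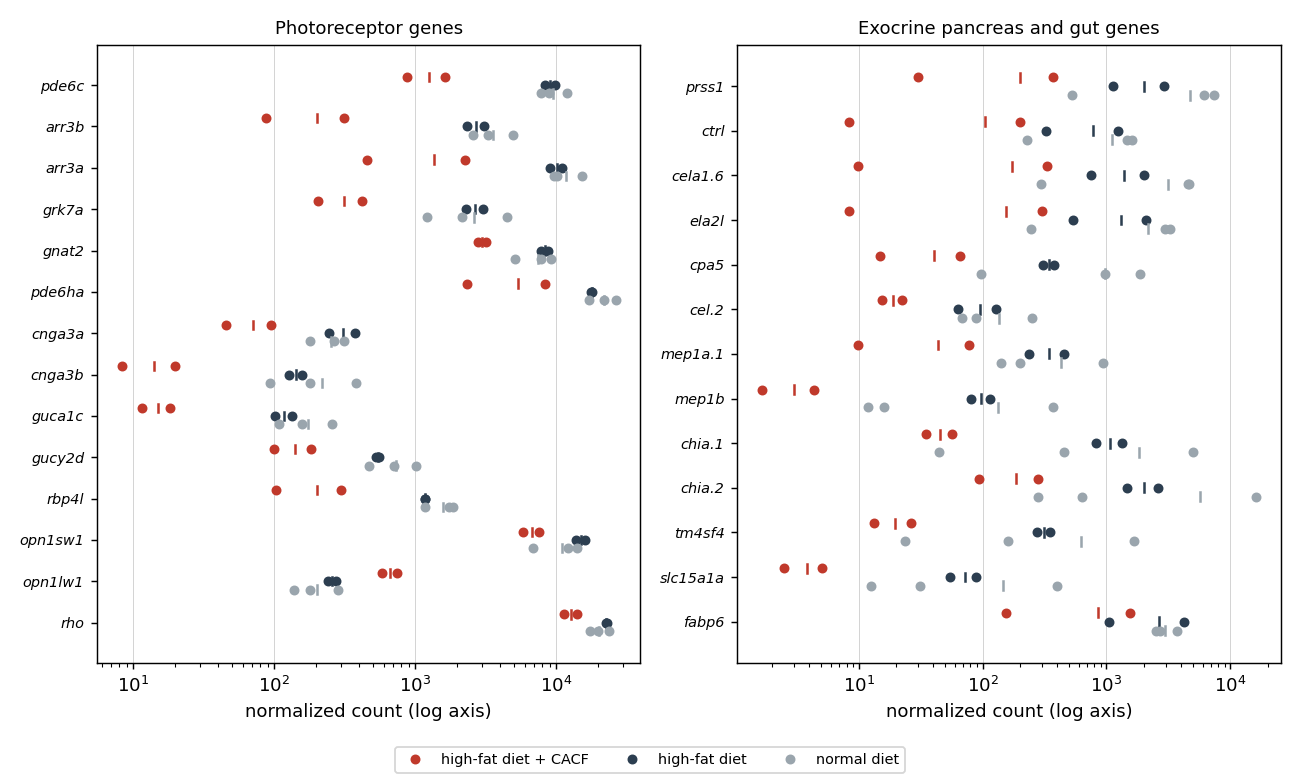
Normalized counts (log axis) of photoreceptor genes (left) and exocrine pancreas and gut genes (right) by library, with high-fat diet plus CACF in red, high-fat diet alone in dark blue and normal diet in grey; short vertical lines are group means. Red points lie left of dark blue ones in every gene drawn except opn1lw1 (right of them) and fabp6 (overlapping), and the pancreas genes spread widely within each group.

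The lists of lipid genes that the title of the series bears on did not share a direction. Lipogenesis, the making of fatty acids, had a median of 0.26 over 21 tested genes (0.06 without CACF fish 2 and 0.46 without fish 4). At the unadjusted threshold 3 were higher and 2 lower, against 9.74% and 6.14% of all genes. srebf1, its main transcription factor, had 160.5 and 171 normalized counts with CACF, against 75.2 and 83.7 on the high-fat diet alone and 195, 126 and 125 on the normal diet, and the groups of the high-fat diet did not overlap. mid1ip1l, of a family that regulates acetyl-CoA carboxylase in mammals, lay the other way with 735 and 595 with CACF and 1046 and 1082 without. fasn, the fatty acid synthase, was at a log2 fold change of -0.25 with overlap. The lists of lipid droplets and lipolysis (median 0.07 over 25 genes) and of fatty acid oxidation (median -0.05 over 34) lay close to the all-gene median. With single libraries left out they ran from -0.11 to 0.15 and from -0.09 to 0.11, on both sides of 0. None of the lipid droplet genes and 2 oxidation genes in each direction passed an unadjusted p of 0.05.

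In the oxidation list, 2 of 34 tested genes were higher at that threshold, against 9.74% of all genes. They were ppargc1a and pdk4. ppargc1a, the coactivator of mitochondrial genes, had 137 and 102 normalized counts with CACF, against 10.2 and 24.8 on the high-fat diet alone and 112, 129 and 48.9 on the normal diet. pdk4, the kinase that shuts off pyruvate dehydrogenase, had 98.1 and 116 with CACF, against 11.5 and 33.1 on the high-fat diet alone and 148, 50.6 and 26.1 on the normal diet. Both CACF libraries were above the high-fat diet libraries for both genes and within the range of the normal-diet libraries for pdk4, at log2 fold changes of 2.53 and 2.16 (limma adjusted p = 0.117 and 0.216). ehhadh, a peroxisomal oxidation enzyme, was on the lower side at -1.52, and the carnitine transferase gene cpt1aa was at -0.04.

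Cholesterol synthesis rested on 1 library. Its median over 26 tested genes was 0.79, with -0.11 without CACF fish 2 and 1.79 without fish 4. hmgcs1, the HMG-CoA synthase, had 2668 and 329.8 normalized counts in CACF fish 2 and fish 4, against 303 and 440.2 on the high-fat diet alone, and the squalene epoxidase gene sqlea had 416 and 38 with CACF, against 16.6 and 34.1 without. Only CACF fish 2 was high for both, and fish 4 was about at the level of the high-fat diet alone. srebf2, the regulator of the pathway, had 1858 and 1114 with CACF and 365 and 926 without, with both CACF libraries above. Among lipoprotein genes, 10 of 23 had both CACF libraries below and 1 had both above, against 23.2% and 24.8% of all genes. Their median was -0.54 and ran from -0.84 to -0.34 with single high-fat diet libraries, CACF ones included, left out. apoeb, an apolipoprotein E, had 3422 and 4523 with CACF, against 6983 and 7071 without.

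The cytosolic ribosomal protein genes were lower in nearly every case. Of 82 tested entries, 78 had both CACF libraries below both high-fat diet libraries, against 23.2% of all genes. The exceptions include rps8b, which had both above while its paralogue rps8a had both below. The list's median log2 fold change was -0.86, with -0.54 without CACF fish 2 and -1.15 without fish 4. At the unadjusted threshold 55 were lower, against 6.14% of all genes. On TPM 3 of 83 were, when 438 genes of all tested were lower. With quantile normalization 2 were, when 1198 genes of all tested were lower. Fewer than 55 also passed without CACF fish 2 or either high-fat diet library, where a lone library stands in a group. Quantile normalization brought the median to -0.34. rpl22, of the large subunit, had 8733 and 14744 normalized counts with CACF, against 27094 and 25289.7 without. These genes held 6.02% and 9.25% of each CACF library's normalized counts, against 12.2% and 13.7% on the high-fat diet alone and 10.2%, 11.6% and 14.9% on the normal diet. Of the counts outside the mitochondrial genome the shares were 8.39% and 11.7% with CACF, against 14.2% and 15.3% without. With 2 libraries in each group the exact two-sided permutation test over libraries gives p = 0.333 for these shares, the smallest it can give. Translation factor genes had a median of -0.34 over 42 genes (-0.11 on TPM and -0.14 with quantile normalization). Without overlap 23 were below and none above, against 23.2% and 24.8% of all genes.

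Transcripts of the mitochondrial genome took 28.2% and 20.9% of the reads of CACF fish 2 and fish 4, against 14.0% and 10.8% on the high-fat diet alone and 17.8%, 10.1% and 7.74% on the normal diet (exact permutation p = 0.333, the smallest possible). Of its 13 protein genes, 12 had both CACF libraries above both high-fat diet libraries, against 24.8% of all genes. Their median log2 fold change was 1.07, with 0.70 without CACF fish 2 and 0.61 with quantile normalization. mt-nd5, a subunit of complex I, had 180643 and 98902 normalized counts with CACF, against 58001 and 46838 on the high-fat diet alone and 89659, 34912 and 23353 on the normal diet. mt-nd6, the protein gene on the other strand, was the one without such a gap. Nuclear genes of the same respiratory complexes had a median of -0.06 over 89 genes (-0.33 without CACF fish 2 and 0.11 without fish 4). At the unadjusted threshold 2 were lower and none higher, against 6.14% and 9.74% of all genes. The part of the mitochondrial share in the other results was not tested.

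**Figure D4:**
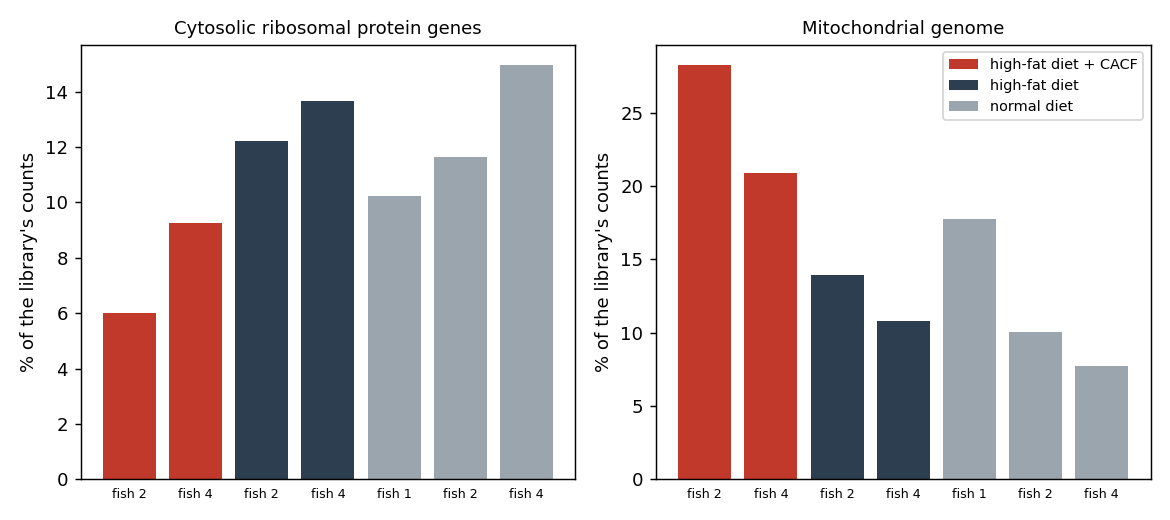
Percent of each library's normalized counts held by cytosolic ribosomal protein genes (left) and percent of its reads held by the mitochondrial genome (right), 1 bar per library, with high-fat diet plus CACF in red, high-fat diet alone in dark blue and normal diet in grey. The CACF bars are the lowest on the left, at 6.02% and 9.25%, and the highest on the right, at 28.2% and 20.9%.

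No gene passed the adjusted threshold in the higher direction, and those that came nearest by the rule for named genes are given here with what they encode. mapta, which encodes the microtubule protein tau, had 1004 and 738 normalized counts with CACF, against 166 and 181 on the high-fat diet alone and 358, 568 and 267 on the normal diet. dnm1b, a dynamin of synaptic vesicle retrieval, had 709 and 576 with CACF, against 117 and 138 on the high-fat diet alone and 255, 415 and 209 on the normal diet. In both genes the CACF libraries were above all others and the normal-diet libraries above those of the high-fat diet alone. kmt2a, a histone H3 lysine methyltransferase, had 1685 and 1422 with CACF, against 347 and 323 on the high-fat diet alone and 768, 1259 and 555 on the normal diet. bcl11ab, a zinc finger transcription factor, had 167 and 122 with CACF, against 11.5 and 18.6 without. These too had both CACF libraries above all 5 others. Log2 fold changes were 2.28, 2.28, 2.19 and 2.91 for mapta, dnm1b, kmt2a and bcl11ab (limma adjusted p = 0.116 for each). The other genes named on the higher side by the same rule were bin1a, dscaml1, myo10l1, ppp2r2ca, prkcba, pou2f1b, syt3 and thsd7aa, at 2.05 for pou2f1b to 3.43 for bin1a.

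The list of neuronal and glial genes was mixed. Of 44 tested members, 17 had both CACF libraries above and 3 both below the high-fat diet libraries, against 24.8% and 23.2% of all genes. At the unadjusted threshold 8 were higher and 1 lower, against 9.74% and 6.14% of all genes. The list's median log2 fold change was 0.29. That median was 0.12 without CACF fish 2, 0.12 without high-fat diet fish 4 and 0.60 with quantile normalization. slc17a6a, a vesicular glutamate transporter, had 455 and 218 normalized counts with CACF, against 24.2 and 16.5 without, while its paralogue slc17a6b was at a log2 fold change of -0.02. vamp2, the synaptic vesicle SNARE protein, had 778 and 619 with CACF and 186 and 149 without. slc1a2a, a glutamate uptake transporter, lay far on the lower side with 34.9 and 156 with CACF, against 806 and 729 without. No overlap was seen between the groups in these genes, slc17a6b apart. Among 91 tested potassium channel genes, 45 were above and 14 below without overlap, against 24.8% and 23.2% of all genes. At the unadjusted threshold 23 were higher and 8 lower, against 9.74% and 6.14% of all genes. The median was 0.68, with 0.46 without CACF fish 2 and 0.85 without fish 4. kcna1a, a voltage-gated channel, had 215 and 119.9 with CACF and 28.1 and 23.8 without, whereas kcnb2 had 150.5 and 100.2 with CACF and 366 and 361 without.

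Higher values went with long genes. Protein-coding genes were put into 5 groups of 3993 by their span in GRCz11. In the group with the longest spans 18.6% were higher with CACF at the unadjusted threshold and 4.31% lower, whereas in the group with the shortest 5.18% were higher and 6.61% lower. Median log2 fold changes ran over the 5 groups, shortest to longest, as -0.06, -0.08, -0.05, 0.01 and 0.14. The same medians were also taken between libraries of one group. For normal-diet fish 2 over fish 4 they were -0.07 in the shortest and 0.24 in the longest genes. They were -0.04 and 0.13 for high-fat diet fish 2 over fish 4, and -0.02 and -0.04 for CACF fish 2 over fish 4. The part of gene span in the higher genes was not tested.

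The medians of several stress and signalling lists were smaller or turned without CACF fish 2. Immediate early genes, which respond within minutes to stimulation, had a median of 1.51 over 30 genes, with 0.31 without that library. Of these, 17 had both CACF libraries above both high-fat diet libraries and 2 had both below, against 24.8% and 23.2% of all genes. At the unadjusted threshold 1 was higher, against 9.74% of all genes. fosab, an AP-1 subunit, had 5612 and 412 normalized counts in CACF fish 2 and fish 4, against 72.7 and 61 on the high-fat diet alone and 15941, 123 and 131 in normal-diet fish 1, 2 and 4, so the spread within groups was as wide as that between them (log2 fold change 4.42, SE 2.13, limma adjusted p = 0.358). Heat shock proteins (0.54 with both CACF libraries, -0.12 without fish 2), DNA replication (0.25 and -0.38) and endoplasmic reticulum stress (0.40 and 0.05) were likewise lower without it. hsf2, a heat shock transcription factor, went against its list with 188 and 472 with CACF and 1673 and 1219 without, both CACF libraries being below all others. mt2, a metallothionein, had 642 and 883 with CACF, against 2675 and 1723 without and 4009, 3042 and 1874 on the normal diet.

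**Figure D5:**
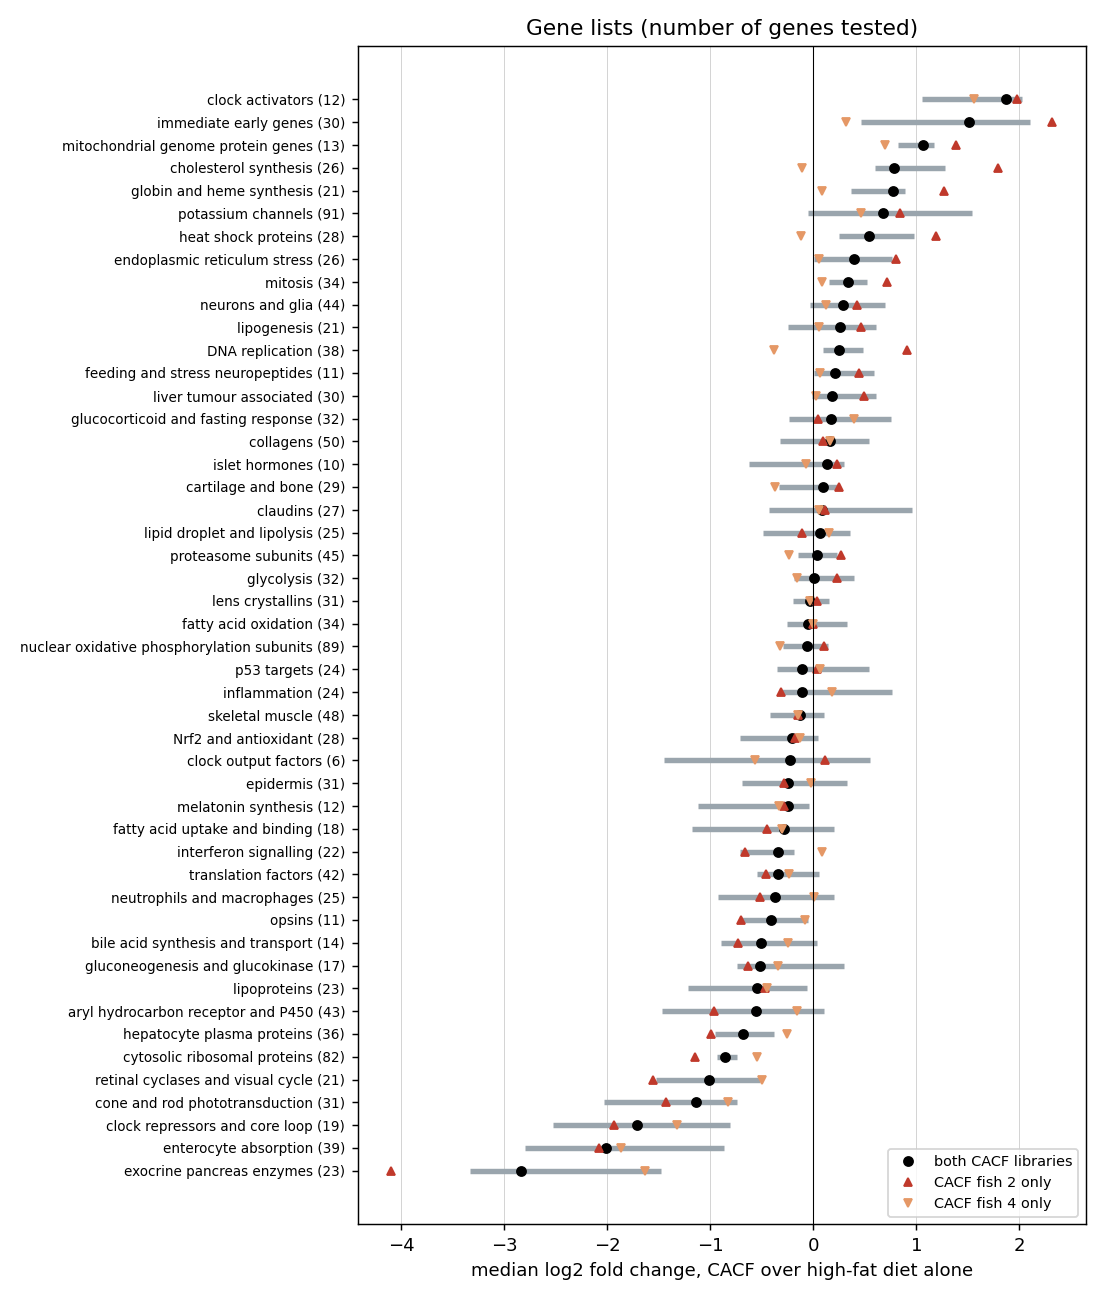
Median log2 fold change of CACF over high-fat diet alone for 48 gene lists, with the number of genes tested in brackets; black points use both CACF libraries, triangles 1 CACF library each, and grey bars span the middle 50% of genes of a list. Exocrine pancreas, enterocyte and clock repressor genes are lowest and clock activators highest, and the triangles of cholesterol synthesis and DNA replication lie on both sides of 0.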

How the data were processed

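Per the labels' protocols, 7 mRNA libraries were made from whole larvae with a stranded kit. The submitters' processing notes list the tools HISAT2, DESeq2, Trimmomatic and FastQC but no versions, and the files are named for build GRCz11. The program that counted reads and its use of strand are not given in the sources used here, so overlapping antisense genes cannot be told apart. The authors deposited 2 tables with a normalized count (signal) per library for 29567 genes, whose values were whole multiples of 1 step per library within 0.001, so whole reads were recovered from them. The authors also deposited TPM (a signal here, since reference genes and assembled loci together exceed the total that TPM allows) for each library.

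Genes with at least 10 normalized counts in at least 2 of 7 libraries, 20906 in all, entered a limma test (version 3.58.1, R 4.3.3) on log2(normalized count + 5), with a variance trend. A mean per group was fitted over all 7 libraries (4 residual degrees of freedom), with Benjamini-Hochberg adjustment and a threshold of 0.05. The scripts were tested on simulated data. For this contrast they recovered 0% of 67 genes changed 2-fold, 14.9% of 67 changed 4-fold and 78.8% of 66 changed 16-fold. They also called 10 unchanged genes, with 20394 genes tested. Unchanged genes thus made up a larger part of the simulated calls than the threshold of 0.05 aims at. In 19 alternatives the pseudocount, filter, scaling, unit, tool (edgeR 4.0.16, DESeq2 1.42.0), fish number and single libraries were changed.

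Named genes were those past the threshold with a mean of at least 100 normalized counts in the higher group and no overlap in counts and TPM, filled to 12 per direction by the smallest unadjusted p, plus up to 3 per list and cd36. Further list members were named after their values were seen. The contrast, the 48 gene lists and their members were chosen with earlier results of these data known.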

Additional observations from a re-analysis of the deposited data

How the results depend on the processing

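The 3 genes past the adjusted threshold were also the 3 called at pseudocounts of 1 and 20, without a filter, at a filter of 50, with TMM scaling, with quantile normalization and without normal-diet fish 1. On TPM 1 gene passed, robust moderation called 5, and a fit of the 4 high-fat diet libraries alone called 0, with 3313 at an unadjusted p under 0.05. edgeR on recovered reads called 0, with 3101 at the unadjusted threshold, and DESeq2 called 975. Leaving out single libraries gave 0 to 126 genes, the highest without CACF fish 4, and 1280 to 4209 at the unadjusted threshold, the lowest without CACF fish 2. Against the 3320 reported, the unadjusted count was between 2502 and 3706 under the other alternatives except the replicate block. Where 1 library is left out of a group, the lone library is assumed to vary like the others. None of the 12 genes named by rule in each direction, nor cd36, changed its direction in these alternatives, leaving out DESeq2 for cd36, where it gave no p.

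With the fish number as a replicate block, 1090 genes passed, 748 higher and 342 lower, and 5047 were under the unadjusted threshold. The 1090 include the 12 genes named in each direction and cd36 (adjusted p = 0.0245). Deviations of fish 2 and fish 4 from their group means correlated over 20906 genes with r = 0.25 between the CACF and high-fat diet groups, 0.36 between the CACF and normal-diet groups and 0.47 between the high-fat and normal-diet groups. The labels do not tie equal numbers to a clutch or batch, and the groups compared share only 2 numbers, so these correlations are a hint from the data and the pairing is not established. Having 2 libraries a group limits what could be detected, and many genes with several-fold differences were not called. The part of CACF fish 2 in the number of calls was not tested.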

Other observations

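Among further lists, drug and toxicant metabolism genes (aryl hydrocarbon receptor and cytochrome P450) had 18 of 43 tested members with both CACF libraries below the high-fat diet libraries. In 3 both were above, beside 23.2% below and 24.8% above over all genes. The median log2 fold change was -0.56, which was -0.16 without CACF fish 2. cyp2p7, a cytochrome P450 of the CYP2 family, had 39.1 and 104 normalized counts with CACF, against 273 and 178 without, whereas arnt, the partner of the aryl hydrocarbon receptor, had 81.5 and 98.7 with CACF, against 12.8 and 11.4 without. Globin and heme synthesis genes had a median of 0.78 over 21 genes, which was 0.08 without CACF fish 2. Among keratins of the skin, krt15 had 352 and 706 with CACF, against 1358 and 1052 without. The claudin cldn5a, a tight junction protein of blood vessels in other vertebrates, had 71.5 and 43.9 with CACF, against 2.55 and 4.13 without (log2 fold change 2.88, SE 0.52, limma adjusted p = 0.116). In these single genes the groups did not overlap, and none passed the adjusted threshold.

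Of the genes chosen for the series' question about liver cancer, 1 of 30 was higher and 1 lower at an unadjusted p under 0.05, which is below the share over all genes, and their median was 0.18 (0.02 without CACF fish 2). gpc1a, a glypican, had 112 and 92.9 normalized counts with CACF, against 5.1 and 15.5 without, and spink4, a trypsin inhibitor family member, had 3.33 and 16.1 with CACF, against 76.5 and 227 without. Of 24 p53 target genes, 1 was higher and 2 lower at that threshold, against 9.74% and 6.14% of all genes. Medians of the remaining lists follow, with their range in brackets when each of the 4 high-fat diet libraries was left out in turn. Medians below 0 in all of these were -0.52 for gluconeogenesis (-0.66 to -0.31), -0.50 for bile acids (-0.73 to -0.24), -0.29 for fatty acid uptake (-0.44 to -0.30), -0.24 for epidermis (-0.29 to -0.02), -0.24 for melatonin synthesis (-0.35 to -0.16) and -0.21 for antioxidant genes (-0.36 to -0.11), although epidermis was at 0.09 on TPM. Medians above 0 in all were 0.34 for mitosis (0.09 to 0.72), 0.21 for neuropeptides (0.03 to 0.45) and 0.17 for the glucocorticoid and fasting response (0.05 to 0.39). No direction held for the others. These were -0.37 for neutrophils and macrophages (-0.82 to 0.13), -0.34 for interferon signalling (-0.77 to 0.09), -0.11 for inflammation (-0.31 to 0.75), -0.13 for skeletal muscle (-0.71 to 0.44), -0.23 for clock output factors (-0.56 to 0.11) and -0.11 for p53 targets (-0.11 to 0.07), and likewise 0.00 for glycolysis (-0.16 to 0.23), 0.04 for the proteasome (-0.24 to 0.27), 0.08 for claudins (-0.06 to 0.34), 0.09 for cartilage and bone (-0.37 to 0.25), 0.13 for islet hormones (-0.29 to 0.23) and 0.17 for collagens (-0.19 to 0.24). None of these lists held a gene past the adjusted threshold.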
